A study of Mus musculus with 30 samples.

Results

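The genes described here are 10 members of the Fat cadherin and Hippo pathway in cultured mouse aortic smooth muscle cells: Fat1, Fat3, Fat4, Dchs1, Fjx1, Yap1, Wwtr1, Tead1, Amotl2 and Ankrd1. They are 10 of 78334 gene identifiers in the deposited table. They were chosen by the measured PDGF-BB response, because Fat4 fell strongly under PDGF-BB, and the others were added as its relatives, partners and effectors. Values of the PDGF-BB comparison are therefore a description here, without a test.

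RNA was sequenced from 30 libraries in 9 groups and 2 sequencing runs. All cells were described as serum-free for 48 h and as transfected for at least 24 h before the endpoint. Run 3 held 5 groups of 4 libraries: a control antisense oligonucleotide in untreated cells, with angiotensin II (10 ng/ml) or with the growth factor PDGF-BB (10 to 30 ng/ml), and an oligonucleotide against long CASC15 in untreated cells or with angiotensin II. Treatments lasted 24 h, and no knockdown library received PDGF-BB. Run 2 held untreated cells only: 2 libraries of the control oligonucleotide and 2 whose label is total CASC15 knockdown, then 3 of a control plasmid and 3 of a plasmid for total CASC15. CASC15 is a long noncoding RNA. The oligonucleotides were GapmeRs per the treatment protocol, which direct RNase H to the RNA they bind. The titles of knockdown and overexpression libraries count the CASC number upward from one library to the next, so libraries were grouped by the code in their names, which stays constant within a group. The labels do not say which transcripts "long" and "total" stand for, whether libraries came from separate cultures, or whether the growth protocol's mention of rat cells applies to these samples. The p-values therefore measure the spread between these libraries, which may be technical.

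Fat4 is a giant protocadherin that binds the protocadherin Dchs1 on the neighbouring cell, and Fjx1 is a Golgi kinase of the four-jointed family that acts on this pair in other animals. Yap1 and Wwtr1 encode YAP and TAZ, the coactivators that the Hippo kinases keep out of the nucleus. In the nucleus they act through TEAD factors such as Tead1, which bind a short DNA motif. Amotl2 encodes a junction scaffold of the angiomotin family that binds YAP, and both Amotl2 and Ankrd1 are widely used as readouts of YAP and TAZ. In smooth muscle, YAP and TAZ are known for their link to growth, matrix stiffness and loss of the contractile state.

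TEAD factors bind the letters GGAATG or their reverse complement CATTCC, so the promoters of the set that hold these letters are shown, with 1 reference target beside them, each as 12 bases on both sides of the motif. The sequences are from RefSeq (build GRCm38.p6), 5′ to 3′ on the strand of the gene, with the motif in capitals. Distances are in bases before the annotated start.
Fat1 (chr8:44950094-44950123, + strand, motif at -102 to -97): cagtgtgggtggGGAATGcttgatgcataa
Yap1 (chr9:8004720-8004749, - strand, -141 to -136): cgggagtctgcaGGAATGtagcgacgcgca
Wwtr1 (chr3:57576029-57576058, - strand, -136 to -131 from one annotated start and -170 to -165 from the other): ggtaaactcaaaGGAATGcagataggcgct
Amotl2 (chr9:102717727-102717756, + strand, -65 to -60): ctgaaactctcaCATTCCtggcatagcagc
Ankrd1, upstream copy (chr19:36120037-36120066, - strand, -210 to -205): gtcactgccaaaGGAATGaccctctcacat
Ankrd1, downstream copy (chr19:36119950-36119979, - strand, -123 to -118): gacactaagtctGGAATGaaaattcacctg
Ccn1, a reference YAP target (chr3:145650071-145650100, - strand, -103 to -98): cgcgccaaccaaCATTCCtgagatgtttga
The table held 8 windows of 250 bases before a start, for 7 of the 10 genes, since Wwtr1 has 2 starts whose windows overlap. The motif was found in 6 of the 8 windows (5 genes) and not in those of Fat3 and Fat4. Of 32851 promoter windows of the same length, 12.6% held it. Among the 19 YAP and TAZ target genes listed for comparison, 13 had windows and 4 of these genes (Ccn1, Axl, Crim1 and Ptpn14) held it. The AP-1 letters TGANTCA and the SRF CArG box, searched on both strands in the same way, were in none of the 8 windows and in 6.75% and 1.47% of all windows. GENCODE lists transcripts of Ankrd1 and Amotl2 that start upstream of the RefSeq start used here. Near its end the Fat1 window holds a run of pyrimidines followed by cag, letters like those at the end of an intron. Whether the Fat1 start used here marks a promoter was not tested. A match is a description of letters and not a site of binding, and no binding was measured here.

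Library totals ran from 18007200 to 21882000 expected counts in run 2 and from 15771500 to 30362000 in run 3. The target was read from 2610307P16Rik, taken here as mouse CASC15 because of its position beside Sox4, with no file pairing the names. Its level is given in CPM (the count scaled to the library's total after TMM adjustment of that total). It was 5.52 ± 0.530 (SD, n = 4) in untreated control cells of run 3 and 2.87 ± 0.561 (n = 4) with the long CASC15 oligonucleotide. Under angiotensin II it was 5.27 ± 0.630 in control cells and 3.04 ± 0.603 with that oligonucleotide (n = 4 each). With PDGF-BB it was 3.61 ± 0.831 in control cells (n = 4), which received no CASC15 oligonucleotide. In run 2 it was 6.42 ± 2.34 CPM with the control plasmid and 716 ± 174 CPM with the CASC15 plasmid (n = 3 each), but the libraries labelled total CASC15 knockdown held 9.01 ± 1.02 against 7.02 ± 0.913 CPM in their controls (n = 2 each), so that group showed no lower level of its target. Of the smooth muscle markers, Acta2 ran from 96.5 to 441 CPM and Smtn from 42.2 to 103 CPM, whereas Cnn1 was at 0 in 17 of 30 libraries and never above 0.224 CPM, Tagln never exceeded 3.45 CPM and Myh11 never exceeded 6.67 CPM. Myocd, Lmod1 and Des never exceeded 3.97, 1.77 and 2.33 CPM. Contractile markers were thus mixed, with Acta2 and Smtn present and all others of the list near absent. The 8 fibroblast markers were mixed as well. The matrix gene Dcn stood at 563 to 2180 CPM, and Ly6a (5.21 to 616 CPM), Pi16 (up to 77.5 CPM) and Pdgfra (1.83 to 65.7 CPM) were counted in every library, while Dpt, Cd34, Clec3b and Lum never exceeded 0.948, 0.283, 2.31 and 5.17 CPM. The batch labels P16 to P19 run with the replicate number, and the P19 libraries of run 3 stood apart: pairs of libraries of 1 group that include P19 correlated at 0.972 to 0.983 across genes, and pairs without it at 0.985 to 0.988. Results are therefore also given without P19, an alternative chosen after seeing the data, and with batch as a block in the fit.

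Per kilobase of the longest transcript, the levels in untreated control cells of run 3 spanned a wide range. Fat1 led with 73.3 ± 5.18 CPM per kilobase (SD, n = 4), followed by Amotl2 at 51.1 ± 2.84, Yap1 at 42.4 ± 1.69, Wwtr1 at 28.7 ± 3.81 and Tead1 at 22.3 ± 2.28. Ankrd1 followed at 3.20 ± 1.27 and Fat4 at 0.831 ± 0.173 CPM per kilobase. Fjx1 at 0.0827 ± 0.0776 and Dchs1 at 0.0115 ± 0.0104 stood near the floor, and Fat3 was at 0. Neighbours in this order down to Fjx1 differed by more than the sum of their SDs, while Fjx1, Dchs1 and Fat3 rest on a few counts each and were not told apart. With the mean transcript length in place of the longest, Amotl2 stood first at 121, Fat1 at 110 and Yap1 at 109 CPM per kilobase, and Tead1 at 89.1 passed Wwtr1 at 29.2, so the order of these 5 depends on the length used.

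Fat4, the receptor, was higher with long CASC15 knockdown. In untreated control cells its level was 11.1, 13.8, 17.2 and 11.4 CPM in batches P16 to P19. With the long CASC15 oligonucleotide it was 39.1, 39.6, 40.0 and 23.8 CPM in the same batches. The groups did not overlap, every batch was higher, and the P19 library was the lowest of the knockdown libraries. The log2 fold change was 1.42 (SE 0.208, 95% interval 0.98 to 1.85), a 2.67-fold rise, with an adjusted p of 5.77e-05 (quasi-likelihood test of edgeR, Benjamini-Hochberg over all genes tested). Without P19 it was 1.49.

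Under angiotensin II, in libraries that share none with the untreated pair but come from the same batches, Fat4 rose as well. The control libraries with angiotensin II held 10.4, 12.9, 16.4 and 10.4 CPM in P16 to P19. The knockdown libraries with angiotensin II held 39.0, 50.1, 41.9 and 28.7 CPM. All 4 knockdown libraries again lay above all 4 controls, with P19 the lowest of them. The log2 fold change was 1.67 (SE 0.211, 95% interval 1.23 to 2.11; adjusted p = 1.04e-05, edgeR), a 3.18-fold rise, and 1.71 without P19. Antisense genes share bases with Fat4 exons: C230034O21Rik covers 1209 of 17165 exonic bases, and the strand setting of the counting is not given in the sources used here, so reads of the pair cannot be told apart. A second antisense gene, Gm43539, covers 281 of them. Antisense overlaps also lie in Dchs1 (648 of 11052 exonic bases), Fat1 (487 of 15655) and Yap1 (116 of 9257).

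**Figure D1:**
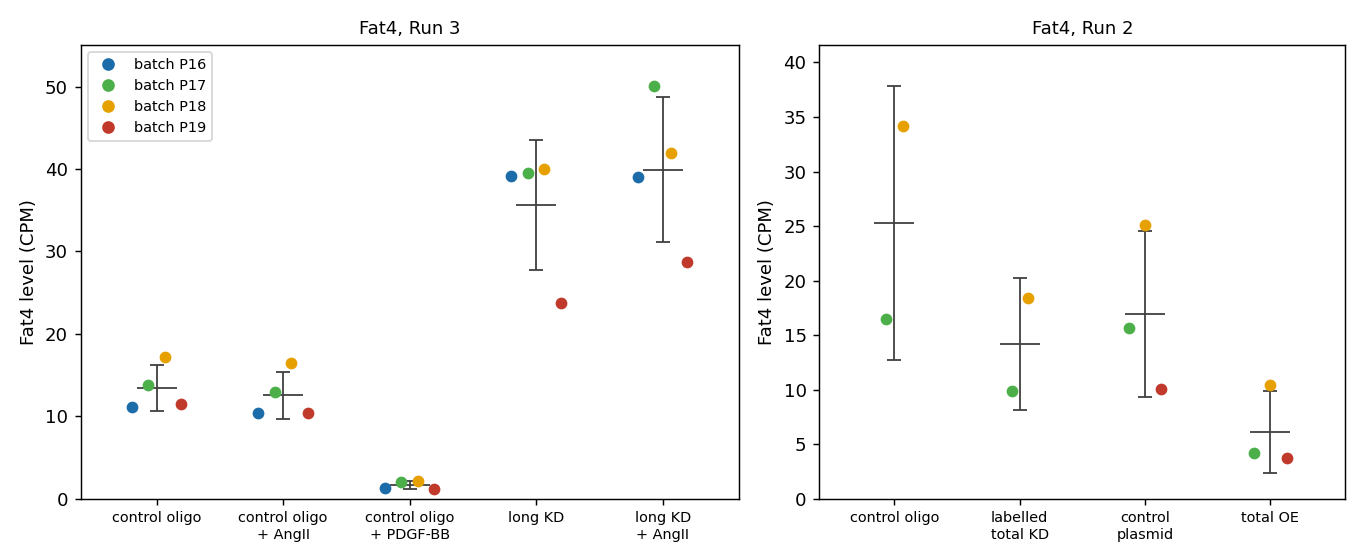
Fat4 level in CPM (vertical axis, linear) in every library, by group (horizontal axis), for run 3 at left and run 2 at right. Each point is a library coloured by batch, and bars give the mean ± SD. In run 3 the long knockdown (long KD) libraries, at 23.8 to 50.1 CPM, lie above all control libraries, and the PDGF-BB libraries lie at 1.22 to 2.16 CPM. AngII is angiotensin II and OE is overexpression.

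Fat1, the most abundant of the Fat cadherins and a regulator of actin at cell edges, held 1072, 1082, 1002 and 1188 CPM in untreated control cells (P16 to P19). With long CASC15 knockdown it held 1061, 1159, 989 and 1562 CPM. The groups overlapped, and only the P19 knockdown library lay well above the controls. The log2 difference was 0.14 (95% interval -0.14 to 0.41), with an adjusted p of 0.482 (edgeR), and 0.02 without P19.

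Under angiotensin II, Fat1 held 996, 1130, 1014 and 1104 CPM in control cells and 1220, 1369, 1053 and 1745 CPM with the knockdown. It was higher in 4 of 4 batches, though the groups overlapped. The log2 difference was 0.34 (SE 0.131), with an adjusted p of 0.0585 in edgeR's fit, 0.0140 with batch as a block, 0.0379 without P19 (log2 difference 0.21) and 0.0486 in DESeq2. Fat1 thus passed the threshold only in some of the fits.

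The ligand Dchs1 and the kinase Fjx1 were too low in run 3 to pass the filter on low counts. Dchs1 had 0 to 18 counts per library there, and Fjx1 0 to 15. Without P19, Dchs1 passed the filter and was not called: its log2 difference with long CASC15 knockdown was 1.72 in untreated cells (adjusted p = 0.0577, edgeR) and 0.81 under angiotensin II (adjusted p = 0.370). In all 4 batches of the untreated arm it was higher, with group means of 0.426 against 0.124 CPM, and in 2 of 4 under angiotensin II. The groups overlapped in both arms. Fat3 had 0 counts in all 20 libraries of run 3, where 3 counts are worth 0.102 to 0.190 CPM; levels up to that limit were not detectable at this depth. In run 2 Fat3 had at most 2 counts per library.

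The coactivator genes stayed within narrow ranges. Yap1 held 216, 217, 229 and 234 CPM in untreated control cells and 232, 232, 227 and 240 CPM with the long CASC15 oligonucleotide. The groups overlapped, and the log2 difference was 0.06 (95% interval -0.05 to 0.16; adjusted p = 0.449, edgeR). Under angiotensin II the difference was 0.10 (interval -0.0013 to 0.21), with an adjusted p of 0.136 in edgeR's fit and 0.0382 with the batch block.

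Wwtr1 differed by a log2 value of -0.06 (95% interval -0.24 to 0.11) in untreated cells and -0.09 (-0.26 to 0.09) under angiotensin II, with adjusted p of 0.627 and 0.473 in edgeR's test. Its P19 control library held 161 CPM against 122 to 128 CPM in the other 3, and without P19 the untreated difference changed sign to 0.03.

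Tead1, the DNA-binding partner, was lower with the long CASC15 knockdown in every batch of both arms. Untreated control libraries held 210, 207, 217 and 256 CPM and untreated knockdown libraries 184, 183, 187 and 218 CPM in P16 to P19. The groups overlapped only through the P19 library of the knockdown, the highest of its group. The log2 difference of -0.20 (SE 0.0849) had an adjusted p of 0.0891 in edgeR's fit, 0.000671 with the batch block and 0.00441 without P19.

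Under angiotensin II, control libraries held 216, 231, 239 and 256 CPM of Tead1 and knockdown libraries 165, 173, 190 and 214 CPM. These groups did not overlap. Tead1 fell by 0.34 on the log2 scale (SE 0.0851; adjusted p = 0.00525, edgeR). The 2 log2 differences of Tead1 were not shown to differ: the interaction was -0.14 (95% interval -0.39 to 0.11).

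Amotl2, a YAP-binding scaffold and target gene, fell with the knockdown in both arms. It held 213, 220, 232 and 241 CPM in untreated control cells and 126, 128, 130 and 206 CPM with the long CASC15 oligonucleotide in P16 to P19. The groups did not overlap, and the P19 knockdown library stood far above the other 3. It fell by 0.62 on the log2 scale (SE 0.139; adjusted p = 0.00277, edgeR), or to 65.0% of the control, and by 0.80 without P19.

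With angiotensin II, Amotl2 held 218, 218, 229 and 252 CPM in control cells and 142, 121, 147 and 194 CPM in the knockdown. Again no libraries overlapped, and every batch was lower. The fall was 0.60 on the log2 scale (SE 0.139; adjusted p = 0.00336, edgeR) and 0.71 without P19.

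Ankrd1, a muscle ankyrin-repeat protein and YAP target, had a low level and a strong batch pattern. It held 5.17, 4.28, 6.33 and 10.1 CPM in untreated control cells and 2.85, 2.06, 1.68 and 8.92 CPM in the knockdown. P19 was the highest library of each group, so the groups overlapped although each batch was lower. The log2 difference was -0.75 (SE 0.449), with an adjusted p of 0.241 in edgeR's fit and 0.00298 with the batch block. Without P19 it was -1.25 (adjusted p = 2.76e-05).

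In the angiotensin II arm Ankrd1 held 5.51, 5.15, 5.49 and 8.39 CPM in control cells and 2.52, 2.86, 2.25 and 6.18 CPM in the knockdown. It was lower in 4 of 4 batches. The log2 difference was -0.82 (SE 0.458), with an adjusted p of 0.197 in edgeR's fit, 0.00232 with the block and 0.000147 without P19, where it was -1.09.

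**Figure D2:**
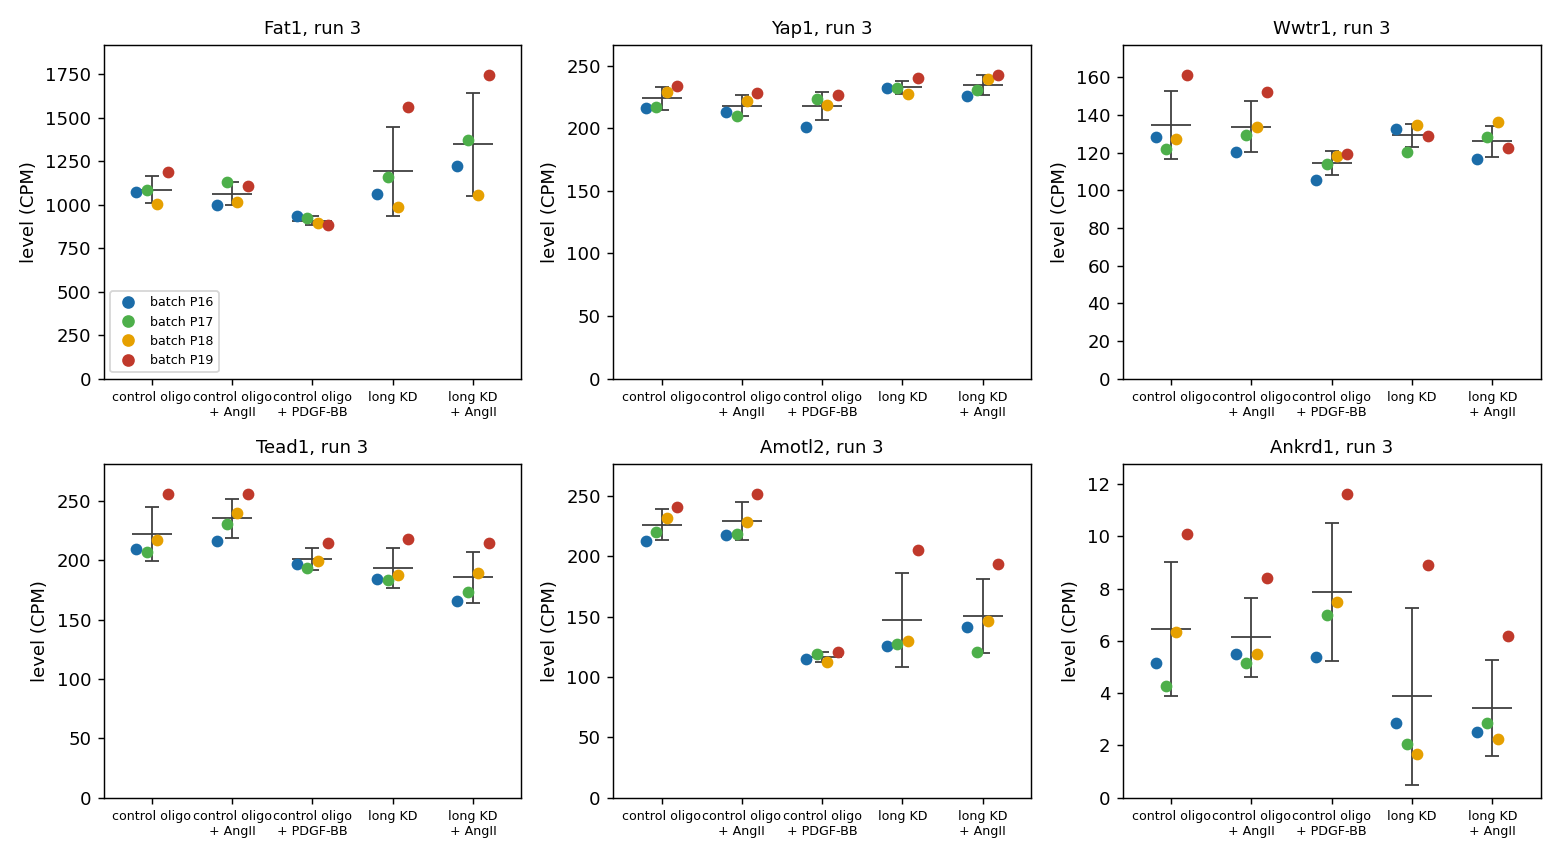
Levels in CPM (vertical axes, linear from 0) of Fat1, Yap1, Wwtr1, Tead1, Amotl2 and Ankrd1 in the 20 libraries of run 3 by group. Points are libraries coloured by batch, and bars give the mean ± SD of each group. Amotl2 separates the knockdown and PDGF-BB libraries from the other controls, while for Ankrd1 the P19 library is the highest of every group, at 6.18 to 11.6 CPM.

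Of the 7 genes tested in run 3, long knockdown in untreated cells called 1 higher (Fat4) and 1 lower (Amotl2), against 25% of the 15103 genes tested. With the batch block the call was 1 higher and 3 lower, against 40.6%, and without P19, where Dchs1 was tested as well, 1 higher and 3 lower of 8, against 40%, with Tead1 and Ankrd1 added in both. Under angiotensin II 1 was called higher and 2 lower, against 26.7% of all genes. This became 3 higher and 3 lower with the block (41.3% of all genes) and 2 higher and 3 lower of 8 without P19 (39.9%). The median log2 difference of these 7 genes was -0.06 in untreated cells and -0.09 under angiotensin II, beside 0.02 and 0.01 over all genes tested. With 7 genes, nothing particular to them is read from these shares. Summed fibroblast markers ran from 1655 to 1834 CPM in untreated control libraries and from 1795 to 2224 CPM in the knockdown, with 2 of 6 tested markers called higher and 2 lower. Under angiotensin II they ran from 1733 to 1952 CPM in controls and from 1777 to 2274 CPM in the knockdown, with 1 called higher and 2 lower. Their part in these differences was not tested, and in bulk samples fewer cells of a type and less RNA per cell cannot be told apart. Of 7 tested smooth muscle markers 2 (Myh11 and Smtn) were called higher and 1 (Myocd) lower in each arm. Summed endothelial markers ran from 1.25 to 2.76 CPM in untreated control libraries and from 1.96 to 3.88 CPM in the knockdown. Under angiotensin II they ran from 0.925 to 2.28 CPM and from 2.29 to 4.21 CPM, without overlap, and 1 of 2 tested, Vwf, was called higher in each arm, at log2 values of 2.10 and 3.42. Summed endothelial and leukocyte markers were at most 4.21 and 3.02 CPM in run 3, and Tie1, Erg, Ptprc and Cd3e were at 0 in all libraries of that run.

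Angiotensin II moved none of the 7 genes past the threshold. In control cells the log2 differences ran from -0.09 to 0.08, and in the knockdown from -0.17 to 0.18. Single P19 libraries moved these limits: to -0.29 without the P19 library of control cells with angiotensin II, to 0.23 without that of untreated control cells, to -0.61 without that of the knockdown with angiotensin II and to 0.64 without that of the untreated knockdown. For Fat4 they were -0.09 (95% interval -0.53 to 0.36) and 0.16 (-0.25 to 0.58). The interaction of the knockdown with angiotensin II was 0.25 for Fat4 (interval -0.36 to 0.86) and between -0.14 and 0.21 for the others. Over the 7 genes its limits reached -0.52 without the P19 library of the knockdown with angiotensin II and 0.73 without that of the untreated knockdown, and none of the 7 was called with any 1 library left out. Over all genes, edgeR's quasi-likelihood test called 0% in all 3 comparisons, also with the block and without P19. At an unadjusted p under 0.05 it counted 156 genes in control cells, 174 in the knockdown and 166 for the interaction, and DESeq2 called 1, 0 and 1. The angiotensin II and PDGF-BB comparisons in control cells and the untreated knockdown comparison share the same 4 untreated control libraries.

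With PDGF-BB, on which the genes were chosen, Fat4 held 1.29, 2.05, 2.16 and 1.22 CPM in P16 to P19, against 11.1 to 17.2 CPM in the untreated controls. The log2 difference was -2.98, the largest of the 7 genes and in every batch of the same direction. Amotl2 held 115, 119, 112 and 121 CPM, a difference of -0.95, so its PDGF-BB libraries lay below all control libraries. Wwtr1 held 106 to 119 CPM and differed by -0.24. The other tested genes differed by -0.26 (Fat1), -0.14 (Tead1), -0.04 (Yap1) and 0.27 (Ankrd1). The median of the 7 was -0.24, beside -0.02 over all genes. In this comparison 43.6% of all genes lay past the threshold used elsewhere (54.5% with the block and 48.9% without P19). Since this response chose the genes, their place in it is no test of them and nothing is read from it. Summed fibroblast markers stood at 847 to 1089 CPM with PDGF-BB, against 1655 to 1834 CPM in the control libraries. Summed smooth muscle markers stood at 196 to 219 CPM against 241 to 276 CPM. Summed endothelial markers stood at 0.356 to 1.05 CPM against 1.25 to 2.76 CPM. Summed leukocyte markers overlapped, at 0.916 to 1.90 CPM against 0.898 to 1.81 CPM. Of 6 tested fibroblast markers, 1 was called higher and 3 lower. Of 7 smooth muscle markers 1 was called higher and 1 lower, and of 2 endothelial markers 1 lower. The part of these markers in the differences was not tested.

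In run 2, which has its own controls, Fat4 was lower with the CASC15 plasmid in each batch, and the call depended on the fit. Libraries with the control plasmid held 15.6, 25.1 and 10.0 CPM in batches P17 to P19, and overexpression libraries held 4.19, 10.4 and 3.74 CPM. The P18 library was the highest of both groups, and the groups overlapped. The log2 difference was -1.47 (SE 0.510; adjusted p = 0.217, edgeR). With batch as a block it was -1.52, with an adjusted p of 5.64e-05, and DESeq2 gave 0.0433. Without P19 the adjusted p was 0.186, and with no filter on low counts 3.86e-09. Leaving out 1 library at a time gave -2.09 (without the P18 overexpression library) to -1.08 (without the P18 control library). No call was made by edgeR's fit in any of these. Summed fibroblast markers ran from 1437 to 1950 CPM with overexpression and from 997 to 1651 CPM with the control plasmid. The sums of the other marker lists overlapped as well. No marker was called by edgeR's fit. With the block 1 fibroblast marker was called higher and 2 lower, and 1 leukocyte marker higher. Without P19, 1 fibroblast marker was called higher and 1 leukocyte marker lower. The part of these markers in the result was not tested.

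The libraries labelled total CASC15 knockdown, in which the target did not fall, held the following Fat4 levels: 9.88 and 18.5 CPM in P17 and P18 against 16.4 and 34.2 CPM in their controls. The log2 difference of -0.83 (SE 0.601) had an adjusted p of 0.656 in edgeR's fit and 0.00457 with the block, with 2 of 2 batches lower. It was -0.22 without the P18 control library, -0.46 without the P17 library of the labelled knockdown, -1.28 without the P17 control library and -1.36 without the P18 library of the labelled knockdown, and edgeR's fit made no call in any of these. With no filter on low counts the adjusted p was 0.0354. In these libraries summed leukocyte markers ran from 17.3 to 21.2 CPM against 0.713 to 0.840 CPM in controls, led by Cd68 at up to 15.9 CPM, while Ptprc, Cd3e and Cd79a were at 0. Of 3 tested leukocyte markers 2 were called higher. Summed endothelial markers ran from 6.02 to 10.2 CPM against 2.81 to 3.90 CPM in controls, with 0 of 2 tested markers called by edgeR's fit and 2 called higher with the block, while Tie1 was at 0. Summed fibroblast markers ran from 781 to 804 CPM against 851 to 974 CPM in controls, with 0 of 7 tested called by edgeR's fit and 2 lower with the block. Summed smooth muscle markers ran from 196 to 214 CPM against 175 to 195 CPM, with 1 of 7 tested, Myh11, called higher. The part of these markers in the result was not tested.

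None of the 9 genes tested in run 2 was called by the fit without the block in either comparison, where 2.07% of the 15350 genes tested were called with the labelled total knockdown and 1.65% with overexpression. With the block, Fat4 was the gene called in both, against 14.4% and 17.7% of all genes. Without P19, overexpression called none of these genes and 5.57% of all genes. In the overexpression comparison, Amotl2 differed by 0.28 (95% interval -0.41 to 0.97) and Ankrd1 by 0.50 (-0.54 to 1.54), both higher in 3 of 3 batches. The Amotl2 difference was 0.01 without the P19 overexpression library and 0.66 without the P19 control library, and the Ankrd1 difference ran from -0.05 to 1.13 with 1 library left out, with no call. Amotl2 held 123, 190 and 294 CPM with the control plasmid and 178, 231 and 328 CPM with overexpression in P17 to P19. Its spread between batches exceeded the difference between the groups.

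**Figure D3:**
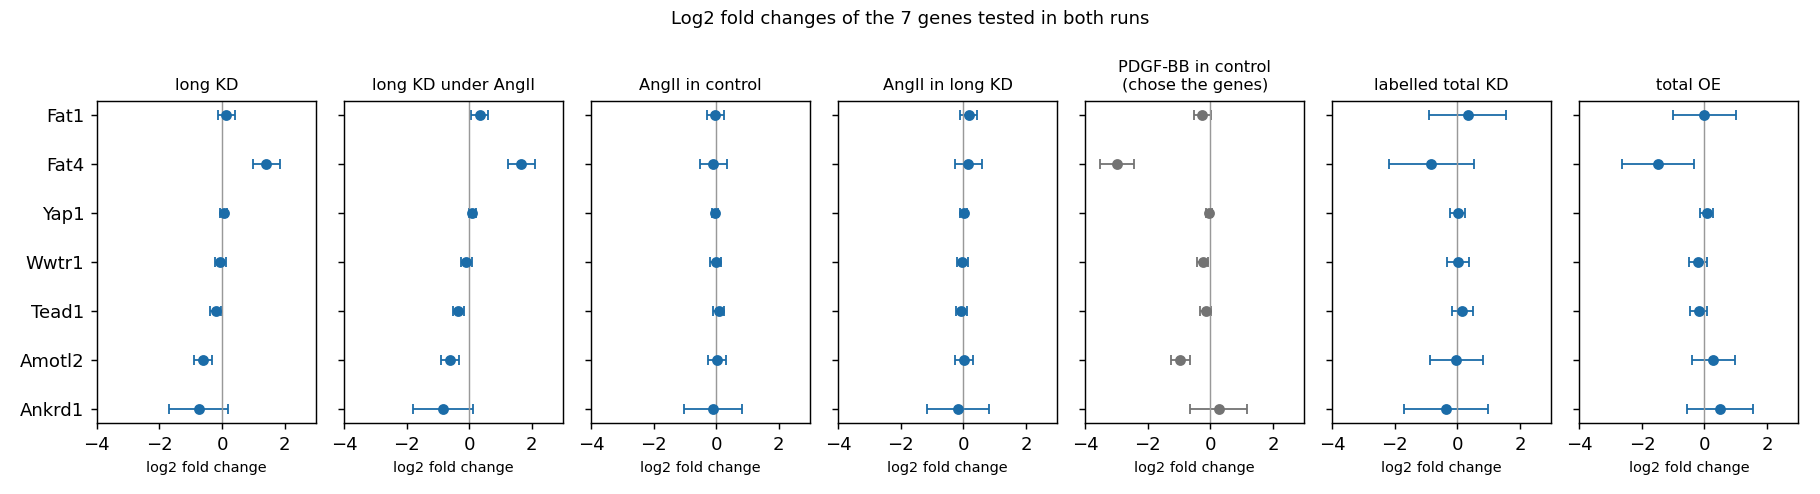
Log2 fold changes (horizontal axes) with 95% intervals for the 7 genes tested in both runs, by comparison. Blue points are tested comparisons, and grey points are the PDGF-BB comparison that chose the genes. The intervals of the grey points are therefore a description and no test. Fat4 lies at 1.42 and 1.67 in the long knockdown (long KD) comparisons, which were called, and at -0.83 with the labelled total knockdown (labelled total KD) and -1.47 with overexpression (OE), which were not called in this fit, while the angiotensin II (AngII) panels lie near 0.

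Other genes of the pathway were called in both directions with the long CASC15 knockdown, in comparisons that called 12.3% of all genes higher and 12.8% lower in untreated cells (25% in all) and 13.4% higher and 13.3% lower under angiotensin II (26.7% in all). Nothing particular to a list is read from its counts. Of 6 tested TEAD and VGLL genes, 2 rose and 1 fell in untreated cells. Vgll4, a cofactor that competes with YAP for TEAD, rose by a log2 value of 0.87 (adjusted p = 2.05e-06, edgeR), Tead2 by 0.33 (0.00394), and Tead4 fell by 0.83 (0.000374), while Tead3 differed by -0.04. Under angiotensin II the values were 0.93, 0.34, -0.85 and 0.01, with 2 genes called higher and 2 lower. The other lower call was Vgll2, a gene of low level named after its value was seen, at -2.09.

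Of 31 kinases and regulators, 6 rose and 5 fell in untreated cells (25% of all genes were called), and 6 rose and 7 fell under angiotensin II (26.7% of all genes). The kinase gene Taok2 rose by 0.60 and 0.53 in the 2 arms, and the phosphatase gene Ptpn14, whose product binds YAP, by 0.59 and 0.56. Ajuba, an inhibitor of LATS kinases, fell by 0.59 and 0.47, and Nf2, the merlin gene upstream of the kinases, fell by 0.38 and 0.42. Wwc1 (KIBRA) fell by 0.52 and 0.50. The kinases Lats1 (0.10 and 0.03) and Lats2 (-0.15 and -0.15) were not called in edgeR's fit, and Lats2 was called lower with the block and without P19. The median of the list was -0.02 and 0.01 beside 0.02 and 0.01 over all genes.

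Of 19 YAP and TAZ target genes, 7 rose and 5 fell in untreated cells, where 25% of all genes were called. The median there was 0.01 beside 0.02 over all genes. Under angiotensin II 6 rose and 5 fell, where 26.7% of all genes were called. This list is a target signature without its members Amotl2, Ankrd1 and Fjx1, which are given above. It shares Lats2 and Ptpn14 with the list of regulators. Rbms3, an RNA-binding protein gene, rose by 1.77 and 1.66, Gadd45a, a stress-response gene, by 0.67 and 0.82, and the coagulation factor gene F3 by 0.85 in untreated cells. Under angiotensin II, F3 differed by 0.44 (adjusted p = 0.203, edgeR) and was called higher without P19, at 0.63 (0.00307). Ccn1, whose promoter stretch is shown above, fell by 0.49 and 0.52 (adjusted p = 0.0388 and 0.0303, edgeR). Ccn2, the other reference matricellular target, differed by 0.01 and -0.01. Foxf2, a transcription factor gene, fell by 0.52 and 0.58.

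Among 18 tested Fat and planar polarity genes, 4 rose and 3 fell in untreated cells and 5 rose and 3 fell under angiotensin II, again beside 25% and 26.7% of all genes. The Wnt receptor gene Fzd6 fell by 0.45 and 0.50, and Prickle2 and Dvl1, of the planar polarity core, rose by 0.35 and 0.31 in untreated cells and by 0.33 and 0.32 under angiotensin II. Without P19 the counts were 4 and 4 in untreated cells and 5 and 5 under angiotensin II, beside 40% and 39.9% of all genes. The other lists without P19 gave 7 higher and 7 lower regulators, 8 and 7 targets and 2 and 1 TEAD and VGLL genes in untreated cells.

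**Figure D4:**
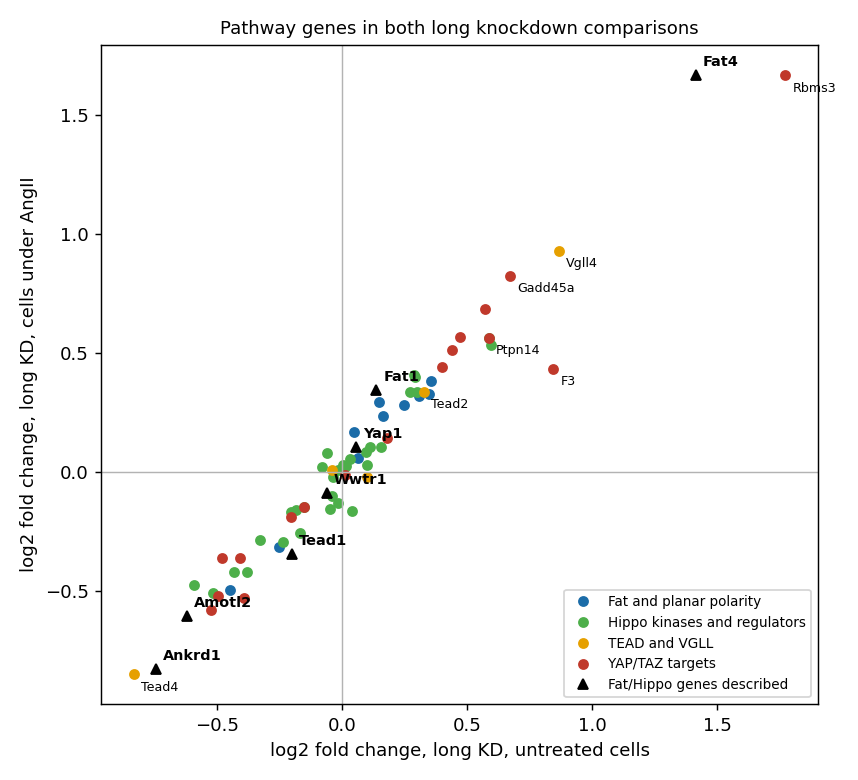
Log2 fold changes of the long CASC15 knockdown (long KD) in untreated cells (horizontal axis) against those under angiotensin II (AngII, vertical axis), for pathway genes with a mean level of at least 5 CPM, coloured by list, and for the 7 tested genes of the Fat and Hippo set as black triangles. The 2 axes share batches but no libraries. Fat4 stands at 1.42 and 1.67, near Rbms3 at 1.77 and 1.66.

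In the PDGF-BB comparison, the one that chose the genes, the lists are given as values only, beside a median log2 difference of -0.02 over all genes. The 19 target genes had a median of -0.17, with Ccn2 at a log2 difference of -1.07, Rbms3 at -0.91 and Gadd45a at -0.76, and with Igfbp3 the highest at 0.75. The 6 tested TEAD and VGLL genes had a median of -0.46, with Vgll4 at -0.74, Tead2 at -0.66 and Tead3 at -0.50, and with Vgll2, a gene of low level, the highest at 2.07. The 31 regulators had a median of -0.01, with Ajuba at -0.62, Lats2 at -0.53 and Tnks, a tankyrase gene, at -0.36, and with Sav1 the highest at 0.33. The 18 tested polarity genes had a median of -0.36, with Ptk7 at -1.02, Prickle2 at -0.81 and Vangl1 at 0.49, and with Fat2 the highest at 1.83. The highest member of each list is named after its value was seen. In run 2, where 1.65% and 2.07% of all genes were called, edgeR's fit called 1 of 19 targets with overexpression, Foxf2, at 1.00 (adjusted p = 0.0421), and 1 of 20 polarity genes with the labelled total knockdown, Celsr3, named after its value was seen. In the fit of all libraries without the block it called no regulator and no TEAD or VGLL gene in run 2. Without P19, where overexpression called 5.57% of all genes, it called Mob1b higher, Tead2 lower and Celsr2 lower, 1 gene each of the regulators, the TEAD and VGLL genes and the polarity genes, and Foxf2 higher among the targets (Mob1b and Celsr2 are named after their values were seen). With batch as a block, where 14.4% of all genes were called with the labelled total knockdown, it called 2 of 31 regulators higher, 2 of 6 TEAD and VGLL genes lower, 3 of 19 targets higher and 4 lower, and 1 of 20 polarity genes higher and 2 lower. With overexpression and the block, where 17.7% of all genes were called, the counts were 1 regulator higher and 2 lower, 2 TEAD and VGLL genes lower, 2 targets higher and 4 lower, and 1 polarity gene higher and 5 lower.

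Across the 20 libraries of run 3, the genes whose log2 level followed Fat4 most closely were Hmcn1 (Pearson r = 0.990), Foxn3 (0.987), Cdon (0.987), Ttc28 (0.985) and Ccpg1 (0.984), among 10178 genes ranked. In the 10 libraries of run 2 the same correlations were 0.875, 0.735, 0.825, 0.661 and 0.246, with Hmcn1 and Cdon the highest. For Ankrd1 the closest in run 3 were Anxa1 (0.963), Capzb (0.962), Cemip2 (0.952), Pla2g4a (0.952) and C3ar1 (0.952), with 0.855, 0.374, 0.0258, 0.792 and 0.736 in run 2. These libraries share groups and batches, and those of run 3 include the PDGF-BB libraries on which the genes were chosen. The values therefore describe pattern only.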

How the data were processed

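Values in the table deposited by the authors are expected counts, made with RSEM per the labels. The submitters' processing notes name STAR 2.7.11b and RSEM 1.3.1 and the builds GRCm39 and mm10, without saying which was used. Annotation and strandedness are not given in the sources used here. Symbols came from GENCODE M21. Expected counts were rounded, genes filtered with filterByExpr (minimum count 10, total 15), scaled with TMM, and fitted per run with edgeR's robust quasi-likelihood model with a coefficient per group. Calls used an adjusted p under 0.05 (Benjamini-Hochberg over all genes tested, two-sided). Versions were edgeR 4.0.16, DESeq2 1.42.0 and limma 3.58.1 under R 4.3.3.

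The 10 genes, the pathway lists (polarity, regulators, TEAD and VGLL, targets) and the marker lists (smooth muscle, endothelial, leukocyte, fibroblast) were chosen with earlier results of these data known. Named pathway genes were the 3 called with the largest change per list and comparison at a mean of at least 5 CPM, plus Ccn1, Ccn2, Lats1, Lats2, Nf2, Tead2, Tead3 and Tead4. Similar genes were the 5 with the highest correlation of log2 CPM. Batch labels pair libraries: after removing group means, libraries of the same batch correlated at 0.0620 or more in every pair and at 0.184 to 0.499 on average per comparison, other pairs at -0.253 to -0.0559. Replicates differed by more than counting noise in all 38 pairs (chi-square per degree of freedom 4.22 to 74.6), so none was merged. Alternatives were DESeq2, its size factors in edgeR, 2 other filters, only the groups compared, the batch block, each library left out and, added after seeing the data, batch P19 left out. The edgeR fit without the block was run on simulated data for the untreated long knockdown, the labelled total knockdown and overexpression. Those data held no batch differences, and the other fits were not tested in this way.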

Additional observations from a re-analysis of the deposited data

Results flagged for a closer look

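In groups of 4, a library was singled out when its gap to the nearest other library took up more of the group's range than Dixon's 95% critical value allows. This happened in 7 of 45 sets examined, each the values of 1 gene in 1 group of run 3. Chance flags about 1 in 20 sets when they are independent. These sets come from the same 20 libraries, so no excess over chance is read from the count. In all 7 the library was batch P19. With the long CASC15 knockdown in untreated cells, P19 held 23.8 CPM of Fat4 (nearest 39.1), 218 CPM of Tead1 (nearest 187), 206 CPM of Amotl2 (nearest 130) and 8.92 CPM of Ankrd1 (nearest 2.85). In untreated control cells it held 161 CPM of Wwtr1 (nearest 128). With angiotensin II, it held 8.39 CPM of Ankrd1 in control cells (nearest 5.51) and 6.18 CPM in the knockdown (nearest 2.86). These genes are shown with and without P19 above.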

How the results depend on the processing

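Fat4 and Amotl2 kept their direction and call in both long knockdown comparisons under all 16 alternatives each, with log2 values of 1.33 to 1.57 and 1.54 to 1.82 for Fat4. In untreated cells the long knockdown called 6126 genes with the replicate block, 6062 without P19 and 6398 with both, with 4 of the Fat and Hippo genes called in each. Under angiotensin II the block called 6238 genes and 6 of these, P19 left out called 5 of these, and both together 6381 and 5. Angiotensin II in control cells and the interaction called 1 gene each in DESeq2 and when only the groups compared were fitted. PDGF-BB chose these genes, so their place past the threshold there is a description and no test. It held for 3 of the 7 tested, where 43.6% of all genes lay past it, and for 5 with the block (54.5%). It held for 4 without P19 (48.9%), and also for 4 with P19 out and the block, or with only the groups compared. Nothing is read from these counts. The labelled total knockdown called 1325 genes with no filter, 190 with the mean CPM filter of 1, 2209 with the block, 719 in DESeq2 and 1079 with only the groups compared, with 1 of these genes under no filter and 1 under the block. Overexpression called 1363 with no filter, 2721 with the block, 807 in DESeq2, 66 with only the groups compared, 844 without P19 and 2587 with P19 out and the block; 1 of these genes was called under no filter, the block and DESeq2, and 2 (Fat4 and Amotl2) with P19 out and the block. Leaving out 1 library at a time gave 2889 to 4882 and 3042 to 4880 genes in the knockdown arms, with 2 to 4 and 3 to 4 of these genes, 5601 to 6624 and 2 to 3 with PDGF-BB, 4 to 188 with the labelled total knockdown and 86 to 867 with overexpression, 0 of these genes in both.

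Log2 values that changed sign were Wwtr1 in untreated knockdown (0.030 without P19, and 0.030 with the block added), Yap1 with the labelled total knockdown (-0.0065 with no filter, -0.0082 with only the groups compared) and Fjx1 with overexpression (-0.45 with the block). With 1 library left out they ran from -0.023 to 0.21 (Fat1) and -0.11 to 0.027 (Wwtr1) in the untreated knockdown and from -0.0051 to 0.60 (Ankrd1) with PDGF-BB. With the labelled total knockdown they ran from -0.19 to 0.83 (Fat1), -0.050 to 0.043 (Yap1), -0.094 to 0.12 (Wwtr1) and -0.11 to 0.037 (Amotl2), and with overexpression from -0.52 to 0.41 (Fat1), -1.81 to 0.19 (Dchs1), -2.89 to 1.25 (Fjx1) and -0.053 to 1.13 (Ankrd1). The cause was not tested. Where this left a group with 1 library, that library was assumed to vary like the other groups. The replicate block changed the call of Tead1 and Ankrd1 in the untreated knockdown, of Fat1, Yap1 and Ankrd1 under angiotensin II, and of Fat4 in both comparisons of run 2. Depth limits Fat3, Dchs1 and Fjx1.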
